A study of Mus musculus with 11 samples.

Results

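The 9 genes described here encode the liver's route from ammonia to urea: the enzymes Cps1, Otc, Ass1, Asl and Arg1, the cofactor enzyme Nags, the ornithine carrier Slc25a15, and Gls2 and Oat, which feed ammonia and carbon skeletons into the pathway or drain them from it. They were taken by name from the probe annotation of a mouse expression array, where they had 13 of the 41174 probes and made up 9 of the 27962 named genes. All 9 were among the 16702 genes tested. Normal mouse liver was profiled at 4 stages on 11 arrays, from fetuses (E14.5, 3 arrays, and E18.5, 3 arrays), from pups at postnatal day 5 (P5, 2 arrays) and from adults at postnatal day 56 (P56, 3 arrays). The labels give the fetal ages as embryonic days 14 and 18, and the names E14.5 and E18.5 follow the study's text. No genetic change or treatment separated the groups. Sample RNA carried Cy5 and was hybridised together with a purchased adult mouse liver RNA labelled with Cy3, with no dye swap. Each value below is therefore a log2 ratio of Cy5 to Cy3, so that 0 stands for the level in that adult reference and -1 for a level lower by 1 doubling. The fetal samples are labelled as hepatoblasts at E14.5 and immature hepatocytes at E18.5 but also as liver, and the methods describe both whole livers and cells purified with an antibody to E-cadherin, so which of these an array held is not settled. The strain, C57BL/6, is given for the purified fetal cells. The labels call the arrays of a stage biological replicates without naming animals, and p-values measure the spread between these arrays.

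The urea cycle turns ammonia, which is toxic to the brain, into urea for excretion. Nags makes N-acetylglutamate, without which carbamoyl phosphate synthetase (Cps1) is inactive. Cps1 fixes ammonia in the mitochondrion, Otc joins the product to ornithine to form citrulline, and Slc25a15 carries ornithine in and citrulline out. In the cytosol Ass1 couples citrulline to aspartate, Asl splits the product into fumarate and arginine, and Arg1 releases urea and returns ornithine. Gls2, the liver form of glutaminase, frees ammonia from glutamine close to Cps1 in the hepatocytes around the portal vein, while Oat breaks down ornithine and in adult liver is found around the central vein together with glutamine synthetase.

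Every level below was read with a 60-base probe. Printed here are 4 of the 13 probes, 3 that were placed over more than 1 block and the Arg1 probe, from the 5′ end as the array files give them. In the Ass1 sequence the 20 capitals mark the longest run that it shares with the other, brighter Ass1 probe.
Ass1 probe 2: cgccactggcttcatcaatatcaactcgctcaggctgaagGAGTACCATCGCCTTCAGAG
Otc probe 2: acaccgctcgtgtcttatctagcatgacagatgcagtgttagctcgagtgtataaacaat
Asl probe: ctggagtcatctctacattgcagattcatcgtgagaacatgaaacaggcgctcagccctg
Arg1 probe: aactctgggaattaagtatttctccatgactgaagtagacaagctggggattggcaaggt
On mouse build mm7 the files place Ass1 probe 2 at chr2:31526070-31527709, Otc probe 2 at chrX:8709867-8733514 and the Asl probe at chr5:129249917-129250502. These stretches of 1640, 23648 and 586 bases are longer than a probe, so each probe was placed in more than 1 block of the gene. The Arg1 probe lies in a single block at chr10:24669046-24669105. The transcripts listed for Ass1 probe 2 also include that of Gm5424, a transcribed pseudogene, and signal from the 2 could not be separated by this probe. By transcript accession 8 of the 13 probes were found in RefSeq. The accessions of the other 5, the probes that stand for Cps1, Ass1, Nags and Slc25a15 and the third Otc probe, had no match in that table, and their gene names are those of the array's design. The remaining probes are in single blocks at chr1:67470600-67470659 for Cps1, chrX:8753291-8753350 for Otc probe 1, chrX:8749268-8749327 for Otc probe 3, chr2:31527690-31527748 for Ass1 probe 1, chr11:102258443-102258501 for Nags probe 1, chr11:102257240-102257299 for Nags probe 2, chr8:21160309-21160368 for Slc25a15, chr10:127711271-127711330 for Gls2 and chr7:128962937-128962996 for Oat.

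RefSeq promoters (build GRCm38.p6) were at hand for 5 of the 9 genes: Otc, Ass1, Nags, Slc25a15 and Oat. Shown are the bases before the start site for 1 gene that had most of its difference by E18.5 (Ass1), 1 that rose at every step (Otc) and 1 that rose only in the later steps (Slc25a15). Capitals mark GGGCGG, the core bound by Sp1, in Ass1 and Slc25a15, and TTNNGNAA, a pattern bound by C/EBP factors, in Otc, on either strand.
Ass1, chr2:31470020-31470269, + strand: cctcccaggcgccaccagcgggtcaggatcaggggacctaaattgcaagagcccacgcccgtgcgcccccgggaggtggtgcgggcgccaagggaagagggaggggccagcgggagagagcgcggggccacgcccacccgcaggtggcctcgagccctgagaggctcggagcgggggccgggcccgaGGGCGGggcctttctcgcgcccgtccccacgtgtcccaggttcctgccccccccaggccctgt
Otc, chrX:10252055-10252229, + strand: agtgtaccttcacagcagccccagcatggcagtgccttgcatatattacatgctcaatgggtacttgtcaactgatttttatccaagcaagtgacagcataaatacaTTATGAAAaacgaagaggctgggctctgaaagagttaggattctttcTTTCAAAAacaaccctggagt
Slc25a15, chr8:22398622-22398871, - strand: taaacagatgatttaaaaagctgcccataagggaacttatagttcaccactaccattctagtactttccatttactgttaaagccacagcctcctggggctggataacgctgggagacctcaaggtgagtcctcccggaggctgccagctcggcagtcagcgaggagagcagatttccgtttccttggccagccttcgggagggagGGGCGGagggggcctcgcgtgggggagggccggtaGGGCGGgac
Of the 250 bases searched for Otc, 175 lie before the annotated gene, and only these are printed. In the 250 bases before the start of each promoter entry, TTNNGNAA was found 2 times in Otc, 1 time in Nags and 1 time in Oat, and in 36.8% of all 32851 promoters. GGGCGG was found 1 time in Ass1, 2 times in Nags and 2 times in Slc25a15, against 32.7% of all promoters. No match to CAAAGNNCA (HNF4, in 5.5% of all promoters), TATAAA (the TATA box, 12.4%), TGTTCT (part of the glucocorticoid response element, 16.1%) or TGACG (part of the cyclic AMP response element, 17.8%) was found in these windows. Such matches describe letters, not bound sites. The guanine and cytosine content of the printed stretches was 75.6% in Ass1, 57.6% in Slc25a15 and 41.7% in Otc.

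Between 16790 and 25718 of 43379 spots per array were well above background in Cy5. P56 replicate 2 was the lowest, against 20131 and 23079 on the other P56 arrays, and its omission is given where it decides a result. Across genes, arrays of a stage correlated least at P56 (Pearson r of 0.83 to 0.94) and most at E14.5 (0.99). The brightest probe of each urea cycle gene was well above background on all 11 arrays, and none was saturated. No value of these probes is therefore a bound. The arrays were scanned in 4 sessions, of which 1 held the E14.5 arrays with E18.5 replicate 1, 1 held the P56 arrays with P5 replicate 3, and none held both fetal and postnatal arrays. In every comparison of a fetal with a postnatal stage the scan and the stage therefore cannot be told apart.

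Cell type markers also shifted between stages. The 10 hepatocyte markers measured (among them albumin, transthyretin and fibrinogen chains) averaged -3.27 to -2.995 per E14.5 array and 0.48 to 0.65 per E18.5 array, and in postnatal liver -0.18 to -0.16 (P5) and -1.11 to -0.57 (P56). All 10 rose from E14.5 to E18.5, with a median difference of 3.55, and 8 of 10 were lower at P56 than at E18.5. Among all genes 24.5% were called higher in the former comparison and 33.5% lower in the latter. The 11 erythroid markers averaged 3.14 to 3.29 on E14.5 arrays and 3.24 to 3.37 on E18.5 arrays, far above the adult reference on arrays labelled as hepatic cells. They averaged 2.47 to 3.12 at P5 and -0.18 to 0.06 at P56. The 10 neutrophil and myeloid markers averaged -0.52 to -0.20 on the E14.5 arrays but 2.499 to 2.53 on the E18.5 arrays, then 1.65 to 2.01 (P5) and -2.01 to -1.49 (P56). The 11 macrophage markers went from -2.98 to -2.58 on the E14.5 arrays to between -1.498 and -1.21 on the E18.5 arrays, and were at -1.19 to -1.10 (P5) and -2.38 to -1.76 (P56) later. The 6 hepatoblast markers averaged 0.98 to 1.00 on the E14.5 arrays and 2.02 to 2.18 on the E18.5 arrays. They averaged 1.48 to 1.785 at P5 and -0.62 to -0.15 at P56. From E14.5 to E18.5 only 3 of the 6 rose, Cdh1 (2.51), Krt18 (1.80) and Krt8 (1.59). Afp (0.61), Dlk1 (0.01) and Epcam (0.22) were not called. From E14.5 to E18.5, 4 of 8 endothelial and 4 of 5 biliary markers rose, and of 8 stellate and fibroblast markers 2 rose and 2 fell. The part of these shifts in the results below was not tested, and in bulk RNA fewer hepatocytes and less RNA per hepatocyte cannot be told apart.

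**Figure D1:**
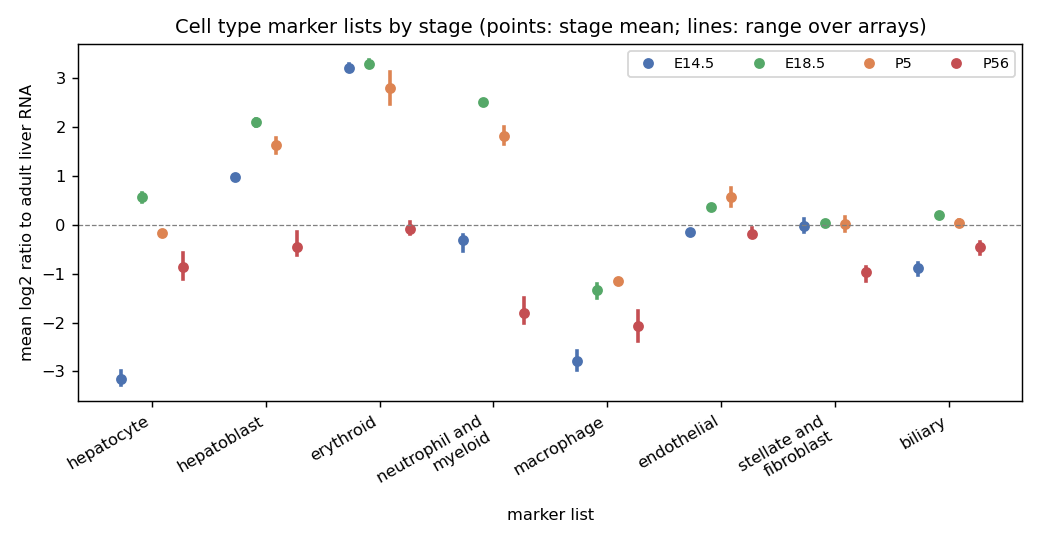
Mean log2 ratio to adult liver RNA (vertical axis) of 8 cell type marker lists at the 4 stages, with points for stage means and lines for the range over arrays. Hepatocyte markers averaged -3.16 at E14.5 and 0.58 at E18.5, while erythroid markers averaged 3.22 and 3.30 there, 2.80 at P5 and -0.08 at P56.

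To follow the pathway through development, successive stages were compared. Between E14.5 and E18.5, 7 of the 9 genes rose and none fell (limma, Benjamini-Hochberg adjusted p below 0.05), in a comparison that called 47.4% of all genes, 24.5% higher and 22.8% lower. Cps1, Arg1 and Gls2 had the largest differences, with log2 values of 5.02, 3.74 and 3.34, and Slc25a15 and Oat did not pass the test. The median over the 9 genes was 1.93, against -0.01 over all genes. Between E18.5 and P5, 4 of 9 rose (Otc, Nags, Slc25a15 and Gls2) and none fell, with 13.7% of all genes called, 7.31% higher and 6.38% lower. The median of the 9 was 0.62 there. Between P5 and P56, 5 of 9 rose (Otc, Arg1, Nags, Slc25a15 and Oat) and 1, Cps1, fell, where 45.6% of all genes were called, 21% higher and 24.7% lower. The median of the 9 was 0.70. When arrays were only shifted to a median of 0, without loess, the calls of this step were 2 higher (Otc and Oat) and 1 lower (Cps1), and the median of all genes was itself at -0.47, with 6.87% of all calls higher against 46% under loess. Relative to that median the 5 genes that rose under loess were at 0.48 to 1.81, and Cps1 at -0.72.

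**Figure D2:**
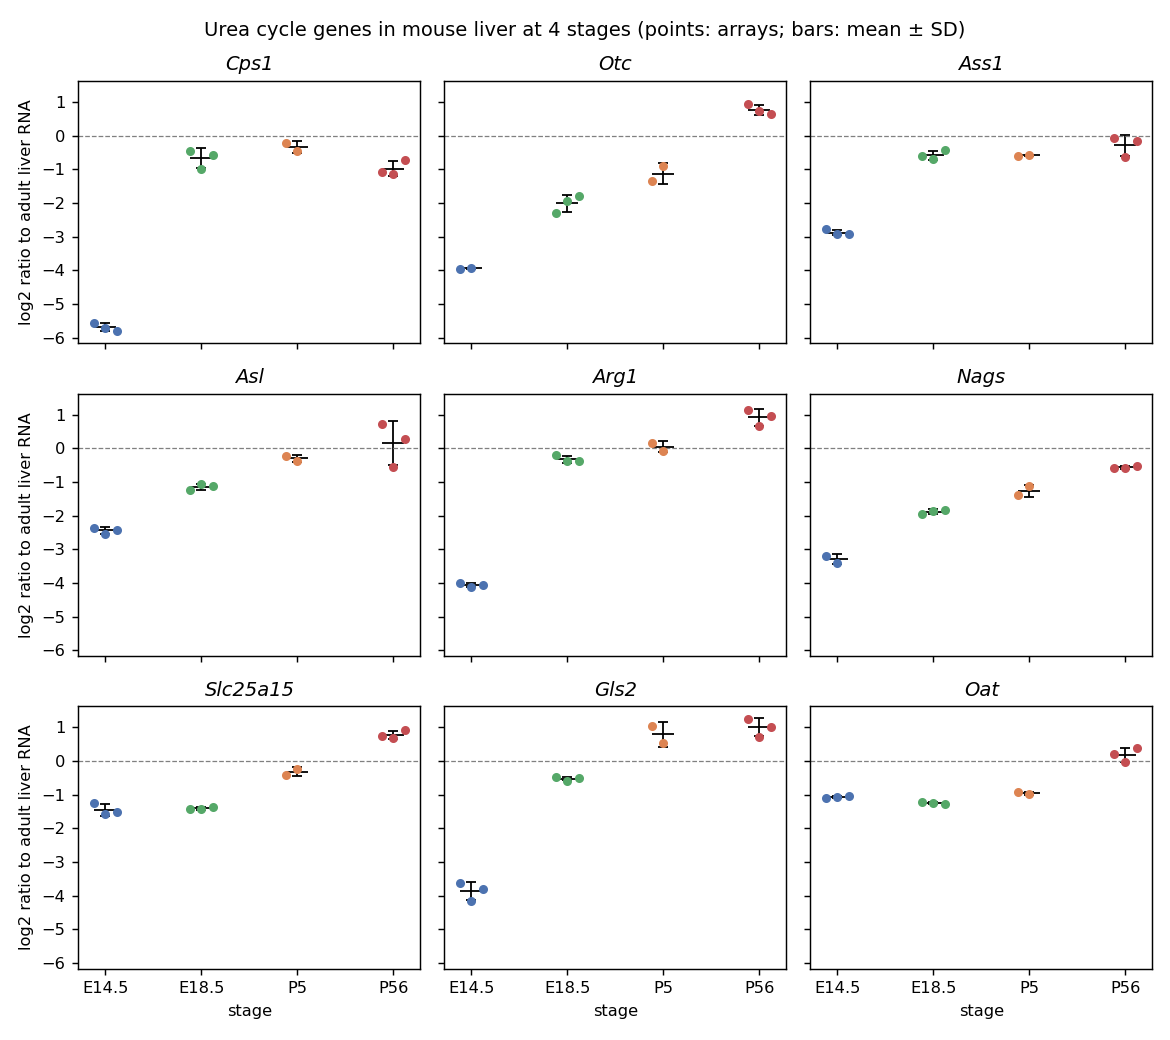
Log2 ratio to adult liver RNA (vertical axis) of the 9 genes by stage, with 1 point per array and bars for the mean ± SD. Cps1 went from a mean of -5.69 at E14.5 to -0.67 at E18.5, whereas Oat stayed between -1.25 and -0.96 until P5 and was at 0.19 at P56.

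The longer comparisons across birth, like P5 against E18.5, lay wholly between scans. From E14.5 to P56 all 9 genes rose, by 1.26 (Oat) to 4.98 (Arg1) on the log2 scale, where 70.9% of all genes were called, 36.2% higher and 34.7% lower. From E14.5 to P5 8 of 9 rose, all but Oat, where 49% of all genes were called, 24.8% higher and 24.1% lower. From E18.5 to P56 7 of 9 rose, with 64.8% of all genes called, 31.3% higher and 33.5% lower, and Cps1 and Ass1 did not pass. The arrays of the 2 stages did not overlap in 8 genes for E18.5 against E14.5, in 7 for P5 against E18.5, in 6 for P56 against P5 and in 7 for P56 against E18.5. Among all genes the corresponding shares were 62.4%, 44%, 61.3% and 70.3%.

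**Figure D3:**
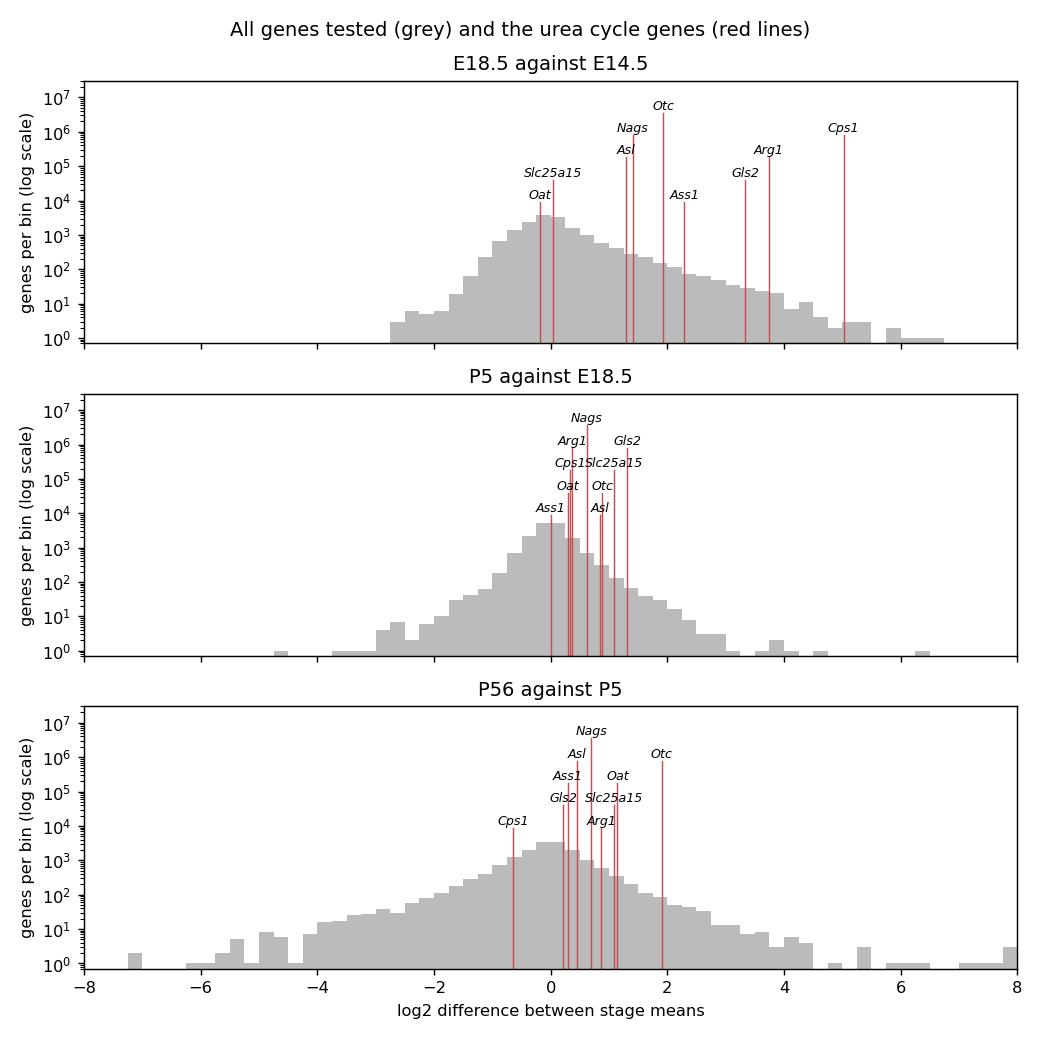
Number of genes per bin (log scale) by log2 difference for 3 successive steps, for all 16702 genes tested in grey, with red lines at the 9 urea cycle genes and values beyond the axis placed in the end bins. Between E14.5 and E18.5, 7 of the 9 lines stand to the right of the bulk of genes, from Asl at 1.30 to Cps1 at 5.02.

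Cps1, the entry enzyme, had the lowest level of the set at E14.5 relative to the adult reference and the largest first rise. Its ratio was -5.56, -5.70 and -5.81 on the E14.5 arrays and -0.45, -0.998 and -0.56 on the E18.5 arrays. It was -0.21 and -0.47 at P5 and -1.07, -1.15 and -0.71 at P56. Arrays of E14.5 lay far below all others, at 1.93% of the reference on average, and the E18.5 arrays overlapped with both postnatal stages. The rise to E18.5 was 32.5-fold (log2 5.02, SE 0.16, adjusted p = 1.5e-09, limma), which placed Cps1 10th of 16702 genes from the highest difference. P5 exceeded E18.5 by 0.33 (95% interval -0.09 to 0.75, adjusted p = 0.24, limma), which was not called. P56 against E18.5 gave -0.31 (adjusted p = 0.11, limma), and was called without E18.5 replicate 2 (-0.47, adjusted p = 0.018) or P56 replicate 3 (-0.44, adjusted p = 0.038), and with median centring (-0.55, adjusted p = 0.028). P56 lay below P5 on every array, by 0.64 (SE 0.18, adjusted p = 0.012, limma). That fall was not called without P5 replicate 2 (-0.51, adjusted p = 0.11, limma), with the scan as a fixed block (-0.51, adjusted p = 0.099) or in the authors' table (-0.73, adjusted p = 0.07). The hepatocyte markers averaged -0.85 at P56 and -0.17 at P5, and their part in the Cps1 values was not tested.

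Nags, which makes the activator of Cps1, rose at each step. Its brighter probe read -3.19 and -3.40 on the 2 E14.5 arrays with a usable spot, and -1.96, -1.87 and -1.82 at E18.5. At P5 it read -1.39 and -1.13, and at P56 -0.58, -0.59 and -0.52. No stage overlapped with the next. The steps were 1.41 (SE 0.12, adjusted p = 2.9e-06), 0.62 (SE 0.12, adjusted p = 0.006) and 0.70 (SE 0.12, adjusted p = 6e-04) in limma. The dimmer Nags probe rose by 0.89 to E18.5 (adjusted p = 8e-04, limma), and its later steps of 0.30 and 0.37 were not called (adjusted p = 0.31 and 0.13). The postnatal calls for Nags rest on 1 of its probes. The P5 step was 0.49 and not called without P5 replicate 3 (adjusted p = 0.061, limma), and the P56 step was 0.01 with median centring. With the mean over probes the P5 step was 0.46 and not called (adjusted p = 0.099, limma). In the authors' table neither postnatal step was called (0.48 and 0.58, adjusted p = 0.32 and 0.068, limma).

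Gls2, the glutaminase, was the other gene of the ammonia supply with a large early change. It read -3.63, -4.15 and -3.79 at E14.5 and -0.47, -0.58 and -0.50 at E18.5. It then read 1.05 and 0.53 at P5 and 1.26, 0.73 and 1.02 at P56. Each fetal stage stood apart from the others, and the postnatal stages overlapped, both above the reference. The first step was 10.1-fold (log2 3.34, SE 0.17, adjusted p = 3.8e-08, limma) and the second 2.48-fold (log2 1.31, SE 0.19, adjusted p = 0.0012). The second was not called in the authors' table (1.36, adjusted p = 0.056, limma). It was also not called with the methods' t-test after Benjamini-Hochberg adjustment (adjusted p = 0.12). P56 against P5 gave 0.21 (95% interval -0.25 to 0.67, adjusted p = 0.40, limma), and the sign turned to -0.05 without P5 replicate 3 and to -0.38 with median centring.

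Otc, the second mitochondrial enzyme, rose in all 3 steps. Its brightest probe read -3.95 and -3.93 on the 2 usable E14.5 arrays and -2.30, -1.94 and -1.79 at E18.5. It read -1.35 and -0.91 at P5 and 0.93, 0.73 and 0.66 at P56. No neighbouring stages overlapped, and only the adult arrays lay above the reference. The steps were 1.93 (SE 0.17, adjusted p = 5.4e-06), 0.88 (SE 0.17, adjusted p = 0.0076) and 1.90 (SE 0.17, adjusted p = 8.7e-06) in limma. Without P5 replicate 3 the second step was 0.66 and not called (adjusted p = 0.076, limma), nor was it in Cy5 alone (0.82, adjusted p = 0.084), with the mean over probes (0.52, adjusted p = 0.074) or in the authors' table (0.34, adjusted p = 0.50). By E18.5 Otc had covered 41% of its log2 difference between E14.5 and P56, whereas Cps1 had covered 107%.

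The second Otc probe, which was placed in more than 1 block of the gene and is printed above, rose in the same 3 steps by 1.44, 0.78 and 0.76 (adjusted p = 1.5e-05, 0.014 and 0.0041, limma). Its last step was smaller than the 1.90 of the brightest probe. Another probe named Otc was dim, above background only on the 3 E18.5 arrays, and lay between -0.37 and 0.00 on all 11 arrays. It passed the filter through E18.5 alone. Its first step of 0.26 is not read as a rise, because its E14.5 values were not well above background. Averaging the probes of a gene brought the first step of Otc down from 1.93 to 0.96.

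**Figure D4:**
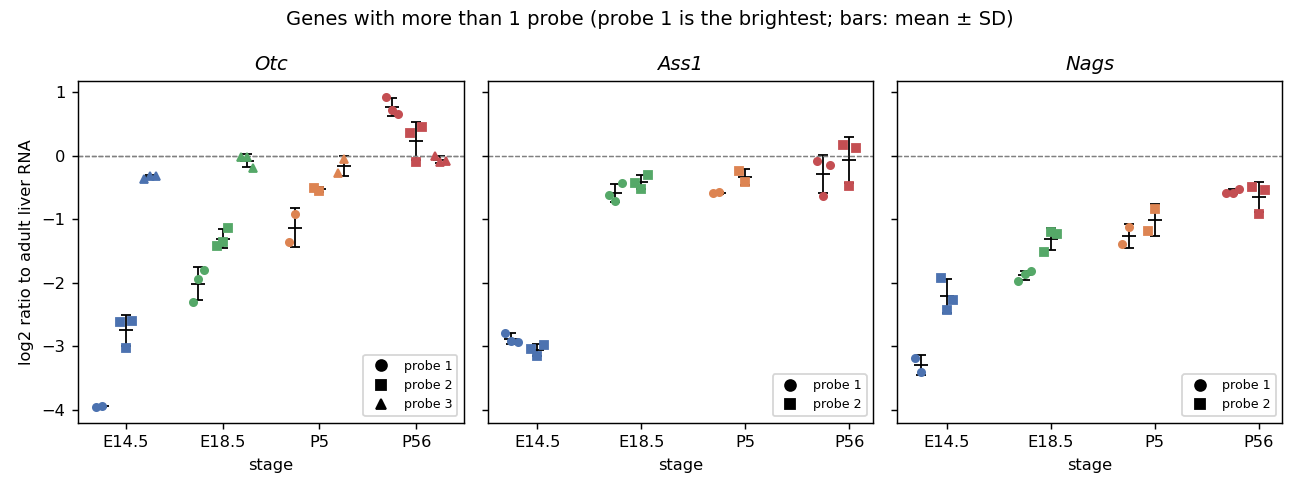
Log2 ratio to adult liver RNA (vertical axis) by stage for each probe of Otc, Ass1 and Nags, with 1 point per array and bars for the mean ± SD. Probes 1 and 2 of each gene went up from E14.5 to E18.5, while probe 3 of Otc lay between -0.37 and 0.00 at every stage.

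Slc25a15, the ornithine and citrulline carrier that serves Otc, did not pass the test before birth and rose at both later steps. It read -1.24, -1.57 and -1.52 at E14.5 and -1.44, -1.43 and -1.36 at E18.5. After birth it read -0.41 and -0.23 at P5 and 0.74, 0.68 and 0.91 at P56. Fetal arrays of both ages overlapped, and each postnatal stage stood clear of all earlier arrays. E18.5 exceeded E14.5 by 0.03 (95% interval -0.22 to 0.29, adjusted p = 0.82, limma), with a sign that turned when E14.5 replicate 2 or 3 was left out. The postnatal steps were 1.09 (SE 0.12, adjusted p = 0.00021, limma) and again 1.09 (SE 0.12, adjusted p = 2.7e-05, limma). The probe was the dimmest of those that stand for a gene here, and the scanner software's processed signals gave 1.74 and 1.70 for these steps. With median centring the last step was 0.23 and not called (adjusted p = 0.23, limma).

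In the cytosol, Ass1 had its largest step between E14.5 and E18.5. It read -2.78, -2.92 and -2.93 at E14.5 and -0.62, -0.70 and -0.43 at E18.5. At P5 it read -0.59 and -0.57, and at P56 -0.08, -0.64 and -0.15. Only E14.5 stood apart, and the other 3 stages overlapped with each other. The rise was 4.90-fold (log2 2.29, SE 0.14, adjusted p = 1.2e-07, limma). The later steps were 0.00 (95% interval -0.36 to 0.37, adjusted p = 0.99) and 0.29 (95% interval -0.07 to 0.66, adjusted p = 0.14) in limma. P56 replicate 2 decided the second of these, which was 0.47 without it (adjusted p = 0.0078, limma). It also decided P56 against E18.5, at 0.30 with it (adjusted p = 0.078, limma) and 0.47 without (adjusted p = 0.0027), and this comparison was also called in Cy5 alone (0.50, adjusted p = 0.025). Ass1 probe 2 gave 2.64, 0.08 and 0.27 for the 3 steps, with the first called (adjusted p = 7.9e-08, limma).

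Asl, the next cytosolic enzyme, rose more gradually. Its values were -2.35, -2.54 and -2.42 at E14.5 and -1.24, -1.07 and -1.11 at E18.5. They were -0.22 and -0.37 at P5 and 0.74, -0.55 and 0.28 at P56. Its first 3 stages did not overlap, and the adult arrays spread around P5, with replicate 2 as the low one. The first step was 2.46-fold (log2 1.30, SE 0.24, adjusted p = 0.00081, limma). P5 exceeded E18.5 by 0.84 (95% interval 0.21 to 1.47, adjusted p = 0.057, limma), just outside the threshold, and P56 exceeded P5 by 0.45 (95% interval -0.18 to 1.08, adjusted p = 0.19). Without P56 replicate 2 both steps were called (0.84, adjusted p = 0.0026, and 0.80, adjusted p = 0.0014, limma), and the former also without P56 replicate 1 (adjusted p = 0.012). The step to P5 was also called with no background correction (adjusted p = 0.039, limma), with the stricter filter or a variance trend (0.048 in both), and with the arrays of the 2 stages alone (0.0067). P56 against E18.5 was 1.29 (SE 0.24, adjusted p = 0.00051, limma), and 0.77 and not called with median centring (adjusted p = 0.084).

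Arg1, which releases urea, had the largest difference of the set between E14.5 and P56. It read -3.998, -4.11 and -4.07 at E14.5 and -0.21, -0.39 and -0.37 at E18.5. It read 0.17 and -0.07 at P5 and 1.15, 0.66 and 0.95 at P56. None of the 4 stages overlapped. The first step was 13.3-fold (log2 3.74, SE 0.12, adjusted p = 1.9e-09, limma), the second 0.37 (95% interval 0.04 to 0.70, adjusted p = 0.098, not called) and the last 0.87 (SE 0.14, adjusted p = 0.00036). The second was called without P56 replicate 2 (adjusted p = 0.049, limma), and the last was 0.35 and not called with median centring (adjusted p = 0.25). Arg1 is also made by some myeloid cells and macrophages. In the first step all 10 myeloid (median 3.15), all 11 macrophage (1.29) and all 10 hepatocyte markers (3.55) rose, where 24.5% of all genes were called higher. In the last step all 10 myeloid markers (median -3.70) and 7 of 11 macrophage markers fell. Of the hepatocyte markers 5 fell and 2 rose there, where 24.7% of all genes were called lower. Which cells gave the Arg1 signal was not tested.

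Oat, the ornithine aminotransferase, passed the test in limma only in the last of the 3 steps. It read -1.09, -1.07 and -1.05 at E14.5 and -1.23, -1.25 and -1.27 at E18.5. It read -0.93 and -0.99 at P5 and 0.21, -0.03 and 0.38 at P56. Its 3 earlier stages lay within a narrow band without overlap, and the adult arrays lay above it. E18.5 was below E14.5 by 0.18 (95% interval of the difference -0.42 to 0.07, adjusted p = 0.18, limma), and P5 above E18.5 by 0.29 (95% interval 0.02 to 0.57, adjusted p = 0.12). P56 exceeded P5 2.21-fold (log2 1.14, SE 0.12, adjusted p = 1.2e-05, limma). In the Cy5 channel alone the first difference was -0.46 and called (adjusted p = 0.011, limma), and the methods' t-test called it on the ratios (adjusted p = 0.0032).

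**Figure D5:**
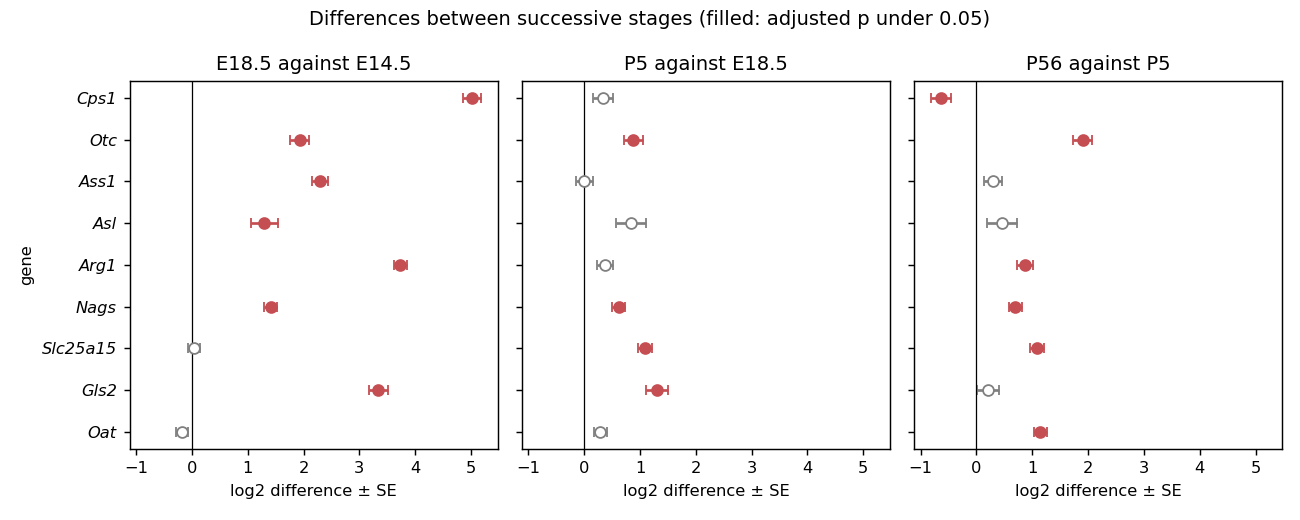
Log2 difference ± SE (horizontal axis) of each of the 9 genes for E18.5 against E14.5, P5 against E18.5 and P56 against P5, with filled points for adjusted p below 0.05 in limma. In the first step 7 points are filled, from Asl at 1.30 to Cps1 at 5.02, and in the last step Cps1 is the 1 filled point below 0, at -0.64 under loess and at -1.19 with median centring.

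Ordered by level, the stages ran E14.5, E18.5, P5, P56 in 7 of the 9 genes. In Otc and Nags every neighbour in that order passed the test, in Slc25a15 all but E14.5 and E18.5, in Arg1 all but E18.5 and P5, and in Gls2 all but P5 and P56. In Ass1 and Asl only E14.5 and E18.5 were distinct among neighbours. Cps1 ran E14.5, P56, E18.5, P5, with only the first 2 distinct among neighbours, and Oat ran E18.5, E14.5, P5, P56, with only the last 2 distinct. Of the log2 difference between E14.5 and P56, Ass1 had covered 88.5%, Arg1 75%, Gls2 68.7%, Nags 51.7%, Asl 50.1% and Slc25a15 1.57% by E18.5. By P5 the shares were 88.6%, 82.5%, 95.7%, 74.4%, 82.6% and 50.9% in the same order, with Otc at 59.7% and Oat at 9.06%. Within the single scan that held E14.5 and E18.5 arrays, the 7 genes called in the first step differed by 1.20 to 5.24. Within the scan that held P5 and P56 arrays, the 5 genes that rose in the last step differed by 0.57 to 1.68, and Cps1 by -0.51.

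The genes around the cycle were counted in lists by their role. Among all genes, 24.5% were called higher and 22.8% lower from E14.5 to E18.5, and 7.31% and 6.38% from E18.5 to P5. From P5 to P56 these shares were 21% and 24.7%, and from E18.5 to P56 31.3% and 33.5%. They stand beside every list count below. Of 14 genes of ammonia and glutamine handling 7 rose and 3 fell from E14.5 to E18.5 (median 0.31). Glutamate dehydrogenase Glud1 rose by 1.42 (SE 0.12, adjusted p = 2.1e-06, limma) and glutamine synthetase Glul, the competing sink for ammonia, by 1.26 (SE 0.14, adjusted p = 2e-05). The amino acid transporter Slc38a4 rose by 2.56 (SE 0.18, adjusted p = 5.2e-07). The ammonia transporter Rhbg fell by 1.02 (SE 0.18, adjusted p = 0.00056, limma) and then rose by 1.36 to P5 and by 0.62 to P56 (adjusted p = 0.0011 and 0.023). From P5 to P56 4 of the 14 genes rose and 6 fell (median -0.04), with differences from -3.87 to 2.24. Glud1 and Slc38a4, like Cps1, were lower at P56 than at P5, by -0.53 and -0.57 (adjusted p = 0.0074 and 0.042, limma).

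Of the 11 genes of the aspartate, citrulline and fumarate shuttle, which supplies Ass1 with aspartate and takes up the fumarate of Asl, 6 rose and none fell in the first step (median 0.72). The mitochondrial aspartate carrier Slc25a13 (citrin) rose by 2.04 (SE 0.16, adjusted p = 1.1e-06, limma), cytosolic malate dehydrogenase Mdh1 by 1.505 (SE 0.14, adjusted p = 5.3e-06) and cytosolic aspartate aminotransferase Got1 by 1.15 (SE 0.18, adjusted p = 0.00026). Got1 rose by a further 1.83 to P5 (adjusted p = 0.00019, limma). From P5 to P56 4 of the 11 rose and 5 fell, among them Slc25a13 (-0.85, adjusted p = 0.0024) and Got1 (-0.89, adjusted p = 0.0037).

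Among the side routes of arginine, ornithine and proline, 9 of 17 genes tested rose and 2 fell from E14.5 to E18.5 (median 0.28). From P5 to P56 3 of the 17 rose and 8 fell (median -0.34). Arg2, Slc25a2, Nos1 and Nos2 did not pass the probe filter and were not tested. The arginine and ornithine transporter Slc7a2 rose by 2.22 (SE 0.14, adjusted p = 1.9e-07, limma), Prodh2, which degrades hydroxyproline, by 2.17 (SE 0.13, adjusted p = 1.3e-07) and agmatinase (Agmat) by 1.44 (SE 0.13, adjusted p = 2.5e-06). Odc1, which diverts ornithine to polyamines, ran the other way. Its stage means were 4.36 and 3.44 in fetal and 3.63 and 1.68 in postnatal liver, and it fell by 0.92 in the first step (adjusted p = 0.00064, limma) and fell by 1.95 in the last (adjusted p = 6.8e-06). Of the 4 water and urea channels 2 rose in the first step (median 0.54). Aqp8 rose by 5.26 (adjusted p = 6.6e-08, limma), fell by 3.70 to P5 and rose by 2.16 to P56, whereas Aqp9 rose by 0.81 and 0.86 in the first 2 steps (adjusted p = 0.00013 and 0.0013).

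Of 10 regulators known to act on urea cycle genes that could be tested, 9 rose in the first step and none fell (median 1.49), and 2 rose in the second. Cebpa, a factor needed for expression of Cps1 in newborn liver, rose by 2.31 (SE 0.15, adjusted p = 2.6e-07, limma), Onecut1 by 1.91 (SE 0.17, adjusted p = 3.4e-06) and Foxo1 by 1.80 (SE 0.16, adjusted p = 2.7e-06). Cebpa then stayed between -0.48 and -0.90 in its stage means. Of 11 other genes found around the portal vein with the urea cycle, most of them enzymes of amino acid breakdown, 9 rose in the first step (median 1.49). In the second step 8 of the 11 rose (median 1.17). Hpd of tyrosine breakdown rose by 2.55 in the first step (adjusted p = 1.1e-07, limma) and Uroc1 of histidine breakdown by 2.13 and 0.48 (adjusted p = 5e-08 and 0.032). Among 10 genes of the central vein zone 3 rose and 3 fell in the first step (median 0.08), 7 rose in the second (median 1.07), and all 10 were higher at P56 than at E18.5 (median 1.80). Slco1b2, a bile acid and drug carrier, rose by 4.50, 2.36 and 0.79 (adjusted p = 3.8e-09, 1.7e-05 and 0.0046, limma), and Cyp2e1, an ethanol-oxidising cytochrome, by 1.59 and 1.98 in the first 2 steps (adjusted p = 0.00014 and 0.00052). Glul and Rhbg, described above, are also on this list. In the first step Glul rose by 1.26 and Rhbg fell by 1.02, the largest fall of the list.

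Across the 11 arrays, which share the 4 stages, the correlations between members ran from 0.26 (Cps1 and Oat) to 0.99 and are given as a description. Ass1 and Arg1 had r = 0.99 (Pearson), Gls2 and Arg1 0.99, Otc and Nags 0.98, Cps1 and Ass1 0.97, and Asl and Gls2 0.96, while the nearest member to Slc25a15 was Oat, at 0.93. Oat was less like Ass1 (0.44), Gls2 (0.54) and Arg1 (0.54), and Slc25a15 less like Cps1 (0.48) and Ass1 (0.61). Of all genes tested the pattern most like Cps1 was that of Sult1a1 (r = 0.997), and those most like Slc25a15 and Gls2 were Dio1 (0.997) and Dmgdh (0.997). Otc was nearest to the glucagon receptor gene Gcgr (r = 0.996 over 10 arrays) and Asl to Ghitm (0.992). The genes nearest to Ass1, Arg1 and Oat appear on the array as 0610011I04Rik, 5033414K04Rik and Agpat6, named Tmem176a, Pid1 and Gpat4 in RefSeq, with r of 0.997, 0.998 and 0.994. The gene nearest to Nags (r = 0.999 over 10 arrays) was a transcript without a symbol. Averaged over Cps1, Otc, Ass1, Asl and Arg1 as z-scores, the nearest were Aldh8a1 (0.997), Pid1 (0.997), BC027183 (0.997), Rdh7 (0.997) and Acsm3 (0.996).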

How the data were processed

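RNA of mouse liver at 4 stages was hybridised to 11 Agilent 4x44k arrays with 2 colours. The authors deposited scanner intensity values for both channels of each spot (Feature Extraction 9.5.1.1, probes placed on mm7) and a table of log2 ratios per gene with 28050 genes, which holds all 9 members and served as an alternative. The submitters' processing notes name limma, with no version. Across 16702 genes, the authors' log2 table and the ratios used here correlated with r of 0.815 to 0.931 per array.

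Intensities were corrected with normexp (offset 50) and normalized by loess within each array. Control spots (1639 per array) and spots marked as outliers were left out, which cost Otc and Nags 1 E14.5 array each. Probes had to be well above background in Cy5 on every array of at least 1 stage, and the brightest probe stood for its gene. Stage means were fitted with lmFit and eBayes (limma 3.58.1, R 4.3.3) on all 11 arrays together. P-values were adjusted over all genes (Benjamini-Hochberg, threshold 0.05). Other probes of a member were tested on the same model, adjusted over all probes. The 95% intervals are unadjusted and use 7 residual degrees of freedom. The limma p-values also draw on the spread over all genes, so the intervals are wider than those that would match them. The scripts were tested on simulated data. The number of arrays, 2 or 3 per stage, limits the precision.

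Stages were taken from the labels, and the fetal days from the study's text. Members and lists were chosen with earlier results of these data known. Named genes were all members, the 3 largest changes among genes called between E14.5 and E18.5 in each list with the largest 1 against its median, and the genes with the highest correlation. Of these, 1 gene of the lists is not reported here. Alternatives changed the background correction, normalization, channel, filter, probe choice, test, blocks and arrays included. Promoters of Cps1, Asl, Arg1 and Gls2 were not analysed here, and a second promoter window of Slc25a15 was not used.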

Additional observations from a re-analysis of the deposited data

How the results depend on the processing

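Among results for single members, 625 of 666 under other settings and 379 of 396 with 1 array left out neither changed sign nor crossed the threshold. Members called numbered 7 or 8 in every alternative for E18.5 against E14.5 and for P56 against E18.5. Oat was the 1 lower call in the former, in Cy5 alone and with the methods' t-test. In the latter all were higher, except that Cps1 was called lower with median centring (6 higher, 1 lower) and without E18.5 replicate 2 or P56 replicate 3 (7 higher, 1 lower). For P5 against E18.5 the 4 members called became 2 with the mean over probes, 1 in the authors' table, 7 with the methods' t-test and 0 after Benjamini-Hochberg adjustment of that test, and 2 to 6 with 1 array left out (2 without P5 replicate 3, 6 without P56 replicate 2). For P56 against P5 the 6 became 3 with median centring and 0 with the adjusted t-test (which used 2 or 3 arrays per stage alone and called 303 genes in all), and 5 to 8 with 1 array left out. Median centring turned Ass1 to -0.24, Asl to -0.23 and Gls2 to -0.38 in that step, and for P56 against E18.5 it put the median of all genes at -0.42 with 15% of calls higher against 48.3% under loess. Of the calls for P5 against E18.5, 53.4% were higher, and 65.5% with plain subtraction and 72.9% in the authors' table. Slc25a15 for E18.5 against E14.5 turned to -0.0066 in Cy5 alone and ran from -0.0279 (without E14.5 replicate 2) to 0.136 with 1 array left out, with -0.0042 without E14.5 replicate 3. Ass1 for P5 against E18.5 ran from -0.0562 to 0.0798, below 0 without E18.5 replicate 1 or 2 or P5 replicate 3, and Gls2 for P56 against P5 from -0.0463 (without P5 replicate 3) to 0.467. Nags lost both postnatal calls (0.30 and 0.37) when a value was required on every array, which leaves its dimmer probe. All genes called for P5 against E18.5 numbered 2286, and 1474 with plain subtraction, 1476 with median centring, 292 in the authors' table, 3463 with the t-test and 57 after its adjustment, and 932 to 3768 with 1 array left out. For E18.5 against E14.5 they numbered 7911, and 4798 in the authors' table (63.9% higher against 51.8%), and 6488 to 8479 with 1 array left out. For P56 against P5 they numbered 7621, and 5040 in the authors' table, 4680 with the scan as a fixed block, 303 with the adjusted t-test, 5008 with the arrays of these stages alone, and 4736 to 8217 with 1 array left out. Genes called in the other lists numbered 42 to 56 against 51. Where not stated, the cause was not tested. Same-numbered arrays did not deviate together (r of -0.305 to 0.186 over 15 pairs), and with the replicate number as a block 7, 4, 6 and 7 members were called in the 4 comparisons and no call of a member changed. Dim probes such as Slc25a15, and 2 arrays at P5, limit what can be told.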
